A study of Mus musculus with 16 samples.

Results

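Of 23235 gene names in a table of mRNA from mouse skeletal muscle, 4 were described here: 8430408G22Rik, 6430571L13Rik, 1190005I06Rik and 1700017B05Rik. All 4 carry clone names of the RIKEN cDNA collection, which holds 611 of the gene names. They were chosen because their level differed strongly with diet, so that difference is a description of them and was not tested. The mice were male C57BL/6J (C57BL/6 in the strain label), 6 weeks old at the start. The control group was kept on a normal diet, the HFD group on a high-fat diet with 60% fat for 8 weeks, and the HFD + RSV and HFD + metformin groups had the same diet and were then given resveratrol (RSV, a plant polyphenol) or metformin (a glucose-lowering drug) for 6 weeks. Each group held 4 mice. The labels name no vehicle for the groups that were given neither compound, and the study gave insulin to some mice before sampling without stating whether these were sequenced. The 4 sequenced HFD mice all carry labels with the same leading number, which no mouse of another group carries. Whatever that number stands for cannot be told apart from membership of the HFD group. This holds for HFD against control and for each treatment against HFD.

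Only 8430408G22Rik carries a descriptive name in the deposited annotation, DEPP1 autophagy regulator, and 17 GO terms, among them autophagy, mitochondrion and peroxisome. As background, Depp1 is a target gene of the FoxO transcription factors, which insulin signalling keeps out of the nucleus, and it is known as a gene of fasting. Autophagy is the breakdown of cell components in lysosomes, and FoxO factors drive it in fasted muscle. 6430571L13Rik has 3 GO terms, all for the membrane. 1700017B05Rik has 4, for the cytoplasm and cytosol among others, and 1190005I06Rik has none. The table lists no KEGG pathway beside any of the 4.

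The mRNA and lncRNA tables together summed to between 20281801 and 34021101 counts per mouse. The tissue was checked because the extraction text of the labels speaks of retinas: 8 skeletal muscle markers summed to between 55840 and 106300 CPM (counts per 1000000 counts of the mRNA library, after TMM scaling of library sizes) per mouse, whereas the 6 listed retina markers summed to at most 2.26. Among 7 white adipocyte markers, including Adipoq and Plin1, 2 mice stood apart: control mouse 3 summed to 6997 CPM and metformin mouse 3 to 6175, beside 2155 to 3197 in the other control mice and 739 to 2362 in the other metformin mice. The HFD mice lay between 619.5 and 1644 and the RSV mice between 1164 and 1877. Values without these 2 mice are given beside the results that they touch.

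The promoters of the 4 genes are shown because the genes moved in different patterns, 1190005I06Rik and 1700017B05Rik together and 8430408G22Rik and 6430571L13Rik in opposite directions. Each window, from RefSeq on GRCm38.p6, runs from 250 bases before to 50 bases after the RefSeq start, 5′ to 3′ on the gene's strand. Capitals mark matches, on either strand, to 7 motifs. These were the forkhead motif GTAAACA, a second forkhead form spelled GTAAATA, the STAT motif spelled TTCNNNGAA, the E-box written as CACGTG, the promoter element known as CCAAT, the GC box spelled GGGCGG, and the element written as TATAAA. Of the 5 pairs of neighbouring GC boxes of 1700017B05Rik, 3 share a base and the others adjoin, and matches of different motifs do not overlap.
8430408G22Rik, chr6:116650434-116650733, plus strand: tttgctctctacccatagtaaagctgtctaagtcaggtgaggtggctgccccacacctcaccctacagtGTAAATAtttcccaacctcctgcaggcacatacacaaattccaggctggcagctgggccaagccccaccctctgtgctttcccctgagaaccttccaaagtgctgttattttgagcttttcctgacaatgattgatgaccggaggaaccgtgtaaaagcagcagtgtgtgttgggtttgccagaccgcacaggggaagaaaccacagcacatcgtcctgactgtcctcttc
6430571L13Rik, chr9:107340390-107340689, plus strand: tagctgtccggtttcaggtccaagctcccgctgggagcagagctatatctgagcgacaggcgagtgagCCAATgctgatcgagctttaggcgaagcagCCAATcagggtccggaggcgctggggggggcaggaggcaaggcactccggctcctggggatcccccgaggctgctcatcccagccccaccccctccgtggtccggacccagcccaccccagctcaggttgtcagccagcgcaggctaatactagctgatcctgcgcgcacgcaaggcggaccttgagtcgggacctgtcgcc
1190005I06Rik, chr8:120634341-120634640, minus strand: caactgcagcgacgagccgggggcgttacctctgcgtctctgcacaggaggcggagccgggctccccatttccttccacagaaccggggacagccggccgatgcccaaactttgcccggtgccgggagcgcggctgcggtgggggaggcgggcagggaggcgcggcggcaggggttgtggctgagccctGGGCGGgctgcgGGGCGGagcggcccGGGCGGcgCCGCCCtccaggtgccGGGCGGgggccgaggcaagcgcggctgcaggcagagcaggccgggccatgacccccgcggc
1700017B05Rik, chr9:57262550-57262849, minus strand: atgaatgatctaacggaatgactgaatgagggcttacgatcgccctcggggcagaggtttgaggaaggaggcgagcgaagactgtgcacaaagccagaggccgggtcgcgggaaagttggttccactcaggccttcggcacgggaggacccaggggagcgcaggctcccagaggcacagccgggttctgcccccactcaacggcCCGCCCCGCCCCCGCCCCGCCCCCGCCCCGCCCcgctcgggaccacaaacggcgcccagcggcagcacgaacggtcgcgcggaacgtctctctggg

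The 8430408G22Rik window held 1 match, GTAAATA at base 70 on the plus strand. That motif was in 3.04% of 32851 promoter windows of the same length, and the canonical GTAAACA, which was in 3.65% of them, had no match in any of the 4. The 6430571L13Rik window held CCAAT at bases 69 and 99, a motif found in 37.4% of windows. The 1190005I06Rik window held 5 GC boxes and the 1700017B05Rik window 6, a motif found in 35.7% of windows. The GC content was 51.7% in 8430408G22Rik, 65.7% in 6430571L13Rik, 68.3% in 1700017B05Rik and 77.0% in 1190005I06Rik, against a median of 52.7% over all windows. CpG pairs numbered 4 in the 8430408G22Rik window, 19 in that of 6430571L13Rik, 31 in that of 1700017B05Rik and 35 in that of 1190005I06Rik, against a median of 7. These matches are letters in a window and no measure of binding.

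8430408G22Rik (ENSMUSG00000048489, chromosome 6, GRCm38) was high in the control group and low in every mouse on the high-fat diet. In CPM the control mice had 87.7, 89.4, 56.3 and 41.6, and the HFD mice 9.60, 6.61, 8.79 and 8.17. The RSV mice had 17.7, 11.7, 12.2 and 8.80, and the metformin mice 4.89, 9.96, 21.7 and 2.12. The lowest control mouse lay above the highest mouse of the 3 other groups, and those 3 groups overlapped one another. For all 4 members, the choice favours a separation from the control mice, and its share over all genes was not counted. The mean was 68.7 ± 23.6 CPM (SD, n = 4) for control mice, 8.29 ± 1.27 for HFD mice, 12.6 ± 3.72 for RSV mice and 9.66 ± 8.63 for metformin mice. The log2FC (log2 of the fold change in the edgeR fit) of HFD against control was -3.05 ± 0.53 (SE), 8.29-fold lower, with no test because it chose the gene. Per length, its mean of 16.9 FPKM (fragments per transcript length and depth) over the 16 mice lay above 82.6% of the 15364 genes tested. Its spread within groups, an SD of 0.79 on the log2 CPM scale, was wider than that of 93.2% of those genes.

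6430571L13Rik (ENSMUSG00000037977, chromosome 9) was the 1 member that was higher on the high-fat diet. The control mice had 12.6, 9.002, 10.6 and 15.6 CPM, and the HFD mice 41.9, 33.4, 39.5 and 43.0. The RSV mice had 23.6, 39.9, 22.9 and 30.3 CPM, and the metformin mice 31.7, 36.2, 20.8 and 32.2. Every mouse on the high-fat diet, treated or not, lay above every control mouse, and 3 of the 4 mice in each treated group fell below the range of the HFD group. The HFD mice entered the choice of the gene, which favours treated mice below their range. How many of all genes show this was not counted, so nothing is read from it. The means were 12.0 ± 2.86 CPM for control mice, 39.4 ± 4.27 for HFD mice, 29.2 ± 7.88 for RSV mice and 30.2 ± 6.61 for metformin mice (SD, n = 4 each). The log2FC of HFD against control was 1.72 ± 0.21, 3.30-fold higher. It was the steadiest of the 4 within groups, with an SD of 0.32 beside a median of 0.25 over all genes tested.

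1190005I06Rik (ENSMUSG00000043687, chromosome 8) was rare in this muscle, with 5 to 139 counts per mouse. The control mice had 2.25, 1.51, 5.43 and 2.29 CPM, and the HFD mice 0.52, 0.29, 0.97 and 0.41. The RSV mice had 0.67, 0.61, 1.42 and 0.36 CPM, and the metformin mice 1.26, 0.19, 3.93 and 0.25. The control and HFD groups did not overlap, whereas metformin mouse 3 lay above 3 of the 4 control mice. The means were 2.87 ± 1.74, 0.55 ± 0.30, 0.76 ± 0.46 and 1.41 ± 1.75 CPM in the control, HFD, HFD + RSV and HFD + metformin groups (SD, n = 4 each), and the log2FC of HFD against control was -2.38 ± 0.80.

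1700017B05Rik (ENSMUSG00000032300, chromosome 9) had the smallest diet difference of the 4. The control mice had 10.4, 11.3, 18.6 and 12.5 CPM, and the HFD mice 6.83, 6.03, 6.14 and 6.66. The RSV mice had 8.00, 7.41, 9.75 and 5.14 CPM, and the metformin mice 9.18, 5.54, 17.0 and 5.71. The HFD mice were close together and all below the control mice, and metformin mouse 3 again lay within the range of the control group. The means were 13.2 ± 3.67, 6.41 ± 0.39, 7.58 ± 1.91 and 9.35 ± 5.35 CPM in the same order of groups (SD, n = 4 each), and the log2FC of HFD against control was -1.04 ± 0.31.

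**Figure D1:**
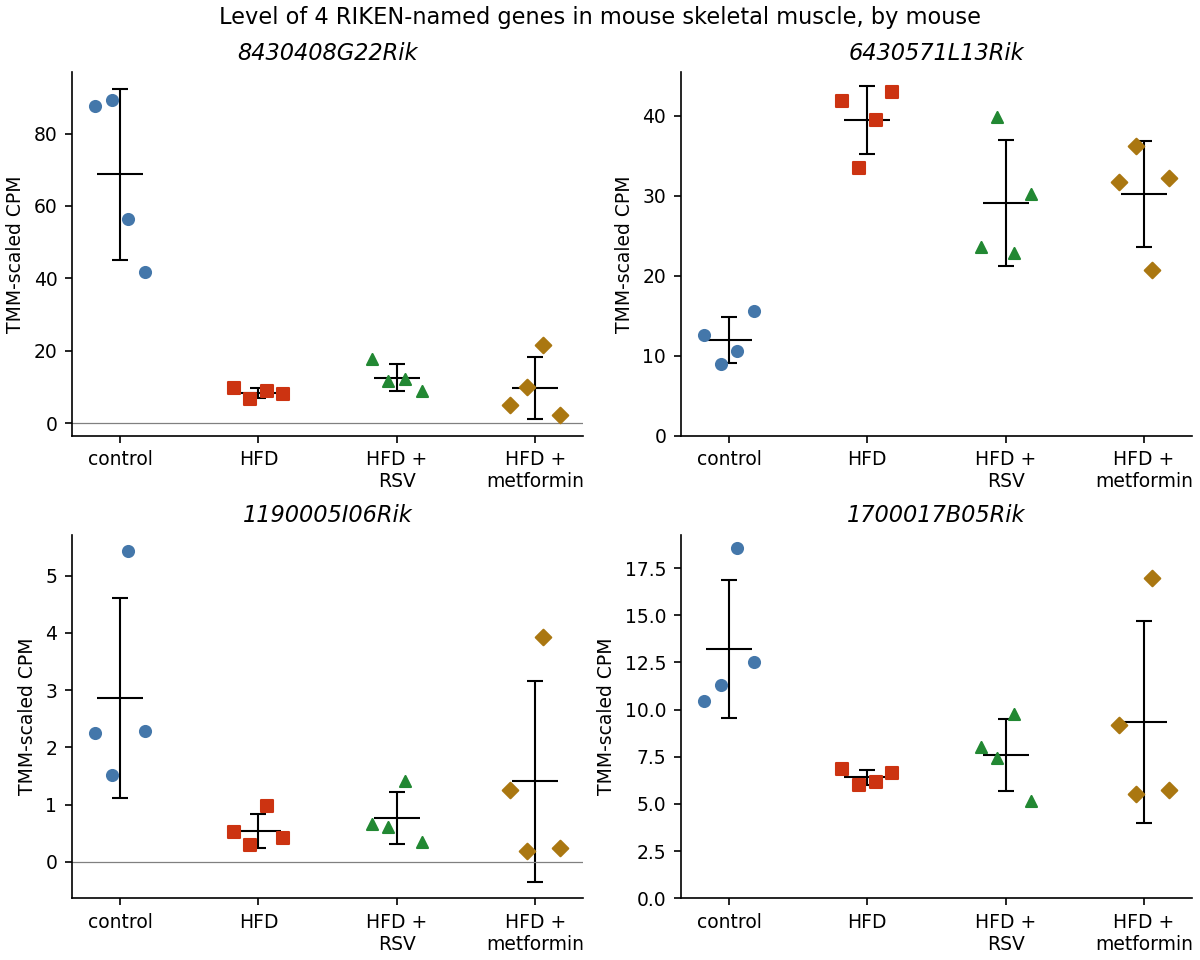
TMM-scaled CPM (y axes, linear) of each gene in each of 16 mice, by group (x axes). Points are mice, and the bar and whiskers are the group mean ± SD (n = 4). The control and HFD means were 68.7 and 8.29 for 8430408G22Rik and 12.0 and 39.4 for 6430571L13Rik, while the other 2 genes had 1 high control mouse and 1 high metformin mouse.

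In the fit that gave these values, 2.43% of the 15364 genes tested were called between the HFD and control groups at an adjusted P below 0.05 (edgeR). By absolute log2FC among 295 RIKEN-named genes tested, 8430408G22Rik ranked 4, 1190005I06Rik 5, 6430571L13Rik 13 and 1700017B05Rik 32. Among the 291 RIKEN-named genes other than the members, 1 was called, 4930430F08Rik with a log2FC of 0.43 ± 0.11 (adjusted P = 0.0491). Nothing is read from these ranks, since the members were chosen on that contrast. Other RIKEN-named genes had a larger absolute log2FC than 1700017B05Rik and were not among the members, such as 4931406C07Rik at -1.90 ± 0.59 and 5530601H04Rik at 1.89 ± 0.53, which are named after their values were seen.

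Whether resveratrol or metformin moved the 4 genes from their level in the HFD group was compared next. The treated mice did not enter the choice of the members, but the HFD mice did and both comparisons share them. None of the 4 genes was called after either treatment, and all groups overlapped. In HFD + RSV against HFD the background was 0% of genes called by edgeR, with 725 genes at an unadjusted P below 0.05 and 7 called by DESeq2. The log2FC was 0.60 ± 0.50 for 8430408G22Rik, -0.44 ± 0.21 for 6430571L13Rik, 0.47 ± 0.82 for 1190005I06Rik and 0.24 ± 0.31 for 1700017B05Rik (edgeR, adjusted P = 0.999 for each). In HFD + metformin against HFD the background was 0.013%, that is 2 genes, Nr4a3 and Oasl2, which are named after their values were seen. The log2FC was 0.22 ± 0.50 for 8430408G22Rik, -0.38 ± 0.21 for 6430571L13Rik, 1.34 ± 0.80 for 1190005I06Rik and 0.54 ± 0.31 for 1700017B05Rik (edgeR, adjusted P = 0.915, 0.636, 0.665 and 0.656). These values moved with metformin mouse 3: without it the log2FC of 8430408G22Rik was -0.55 and that of 1190005I06Rik -0.04. Without RSV mouse 3 the log2FC of 1190005I06Rik after resveratrol was -0.01.

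HFD + RSV against HFD + metformin is the 1 comparison in which neither group was used to choose the genes. Both compounds were given for 6 weeks and muscle was collected once. The labels give no dose, and the study states one for resveratrol but not for metformin. None of the 4 genes was called, beside 0% of all genes by edgeR, with 719 genes at an unadjusted P below 0.05 and 12 called by DESeq2. The log2FC of RSV over metformin was 0.38 for 8430408G22Rik (95% interval -0.60 to 1.36, adjusted P = 0.963, edgeR) and -0.05 for 6430571L13Rik (-0.46 to 0.35, adjusted P = 0.98). It was -0.87 for 1190005I06Rik (-2.40 to 0.67) and -0.30 for 1700017B05Rik (-0.91 to 0.31, both at adjusted P = 0.962 by edgeR). The intervals of 6430571L13Rik and 1700017B05Rik leave out a log2FC of 1 in either direction, and those of the other two genes include one. Without metformin mouse 3 the signs of 1190005I06Rik and 1700017B05Rik turned, to 0.51 and 0.16.

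Against the control group, whose mice were used in the choice and are shared by both comparisons, the means of the treated groups lay on the side of the HFD group. The choice favours a difference from these control mice, so calls and P values against them are descriptions of the members. In HFD + RSV against control no mouse overlapped for any of the 4 genes, which the choice favours. The share of all genes without overlap was not counted, so nothing is read from this. The log2FC was -2.45 ± 0.51 for 8430408G22Rik, 1.29 ± 0.21 for 6430571L13Rik, -1.91 ± 0.78 for 1190005I06Rik and -0.80 ± 0.31 for 1700017B05Rik. None was called by edgeR (adjusted P = 0.107, 0.0647, 0.263 and 0.247), where the background was 0.00651%, the single gene Tyw3, named after its values were seen. DESeq2 called 8430408G22Rik and 6430571L13Rik (adjusted P = 0.000234 and 6.44e-06), along with 358 genes in all. In HFD + metformin against control the log2FC was -2.83 ± 0.52 for 8430408G22Rik and 1.34 ± 0.21 for 6430571L13Rik, without overlap (edgeR, adjusted P = 0.125 and 0.0616). The groups overlapped for 1190005I06Rik at -1.04 ± 0.74 and 1700017B05Rik at -0.50 ± 0.31 (edgeR, adjusted P = 0.707 and 0.645). The background was 0%, with 1459 genes at an unadjusted P below 0.05 and 145 called by DESeq2. Without metformin mouse 3 both first genes were called by edgeR, 8430408G22Rik at -3.60 and 6430571L13Rik at 1.48 (adjusted P = 0.0105 for each), and without control mouse 4 6430571L13Rik was called against both treated groups (1.44 and 1.50, adjusted P = 0.0282 and 0.0358).

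**Figure D2:**
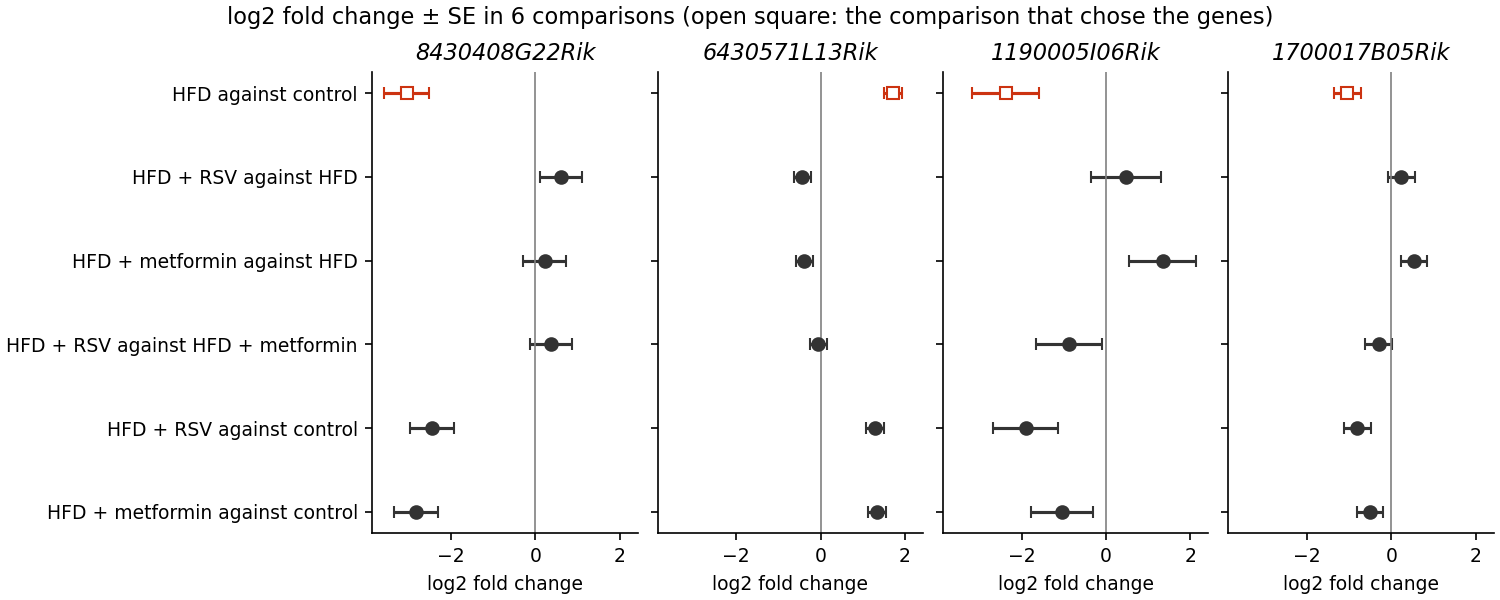
log2 fold change ± SE (x axes) of each gene in 6 comparisons (y axis) from 1 edgeR fit to 16 mice. The open squares mark HFD against control, which chose the genes; 8430408G22Rik and 6430571L13Rik lay at -2.45 and 1.29 in HFD + RSV against control and at -2.83 and 1.34 in HFD + metformin against control, and nearer to 0 in the comparisons with the HFD group.

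The adipocyte markers moved with the groups and with 2 of the members in particular. The 7 markers had a median log2FC of -1.91 in HFD against control, with 0 of 7 called by edgeR, and their sum was lower in all 4 HFD mice than in any control mouse. In bulk tissue, fewer cells of a type and less RNA per cell cannot be told apart. Over the 16 mice, Pearson's r between log2 CPM and the log2 marker sum was 0.928 for 1700017B05Rik and 0.901 for 1190005I06Rik, against 0.649 for 8430408G22Rik and -0.720 for 6430571L13Rik. With the group means subtracted, r was 0.873, 0.851, 0.462 and -0.475 in that order. Without control mouse 3 and metformin mouse 3 it was 0.839 and 0.812 for 1700017B05Rik and 1190005I06Rik (n = 14). The points share libraries, diet and scaling, so these are descriptions. The 2 genes that followed the adipocyte markers also followed each other, at r = 0.951, or 0.922 with the group means subtracted. Other marker sums went with them too. With the skeletal muscle markers r was -0.857 for 1700017B05Rik and -0.757 for 1190005I06Rik, or -0.788 and -0.647 with the group means subtracted. With the macrophage markers it was 0.547 and 0.584.

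The marker sums of the control mice (2155 to 6997 CPM) and the HFD mice (619.5 to 1644) did not overlap. A fit with the sum as a covariate therefore extends its slope across that gap and cannot tell the sum apart from the diet. With the log2 marker sum as a covariate, the log2FC of HFD against control was -0.13 ± 0.55 for 1190005I06Rik and -0.15 ± 0.21 for 1700017B05Rik, in place of -2.38 and -1.04. For 8430408G22Rik it was -2.43 ± 0.59 and for 6430571L13Rik 1.42 ± 0.25, in place of -3.05 and 1.72. Without control mouse 3 and metformin mouse 3, and with no covariate, it was -1.86 for 1190005I06Rik, -0.83 for 1700017B05Rik, -3.14 for 8430408G22Rik and 1.67 for 6430571L13Rik. The sums of other cell types moved too. The muscle markers summed to 57490 to 95810 CPM in control mice and 90700 to 102200 in HFD mice, and the 6 Schwann cell markers at 62.8 to 214.9 and 44.4 to 65.3. With group means subtracted, 8430408G22Rik had its highest r with the 4 smooth muscle markers, 0.824, and 0.686 with the 6 endothelial markers. Without that subtraction these were 0.44 and 0.486, beside 0.649 with the adipocyte markers. Metformin mouse 3 had the highest smooth muscle sum, 297.4 CPM, and r without that mouse was not computed. The part of these cell types in the results was not tested beyond the values given.

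**Figure D3:**
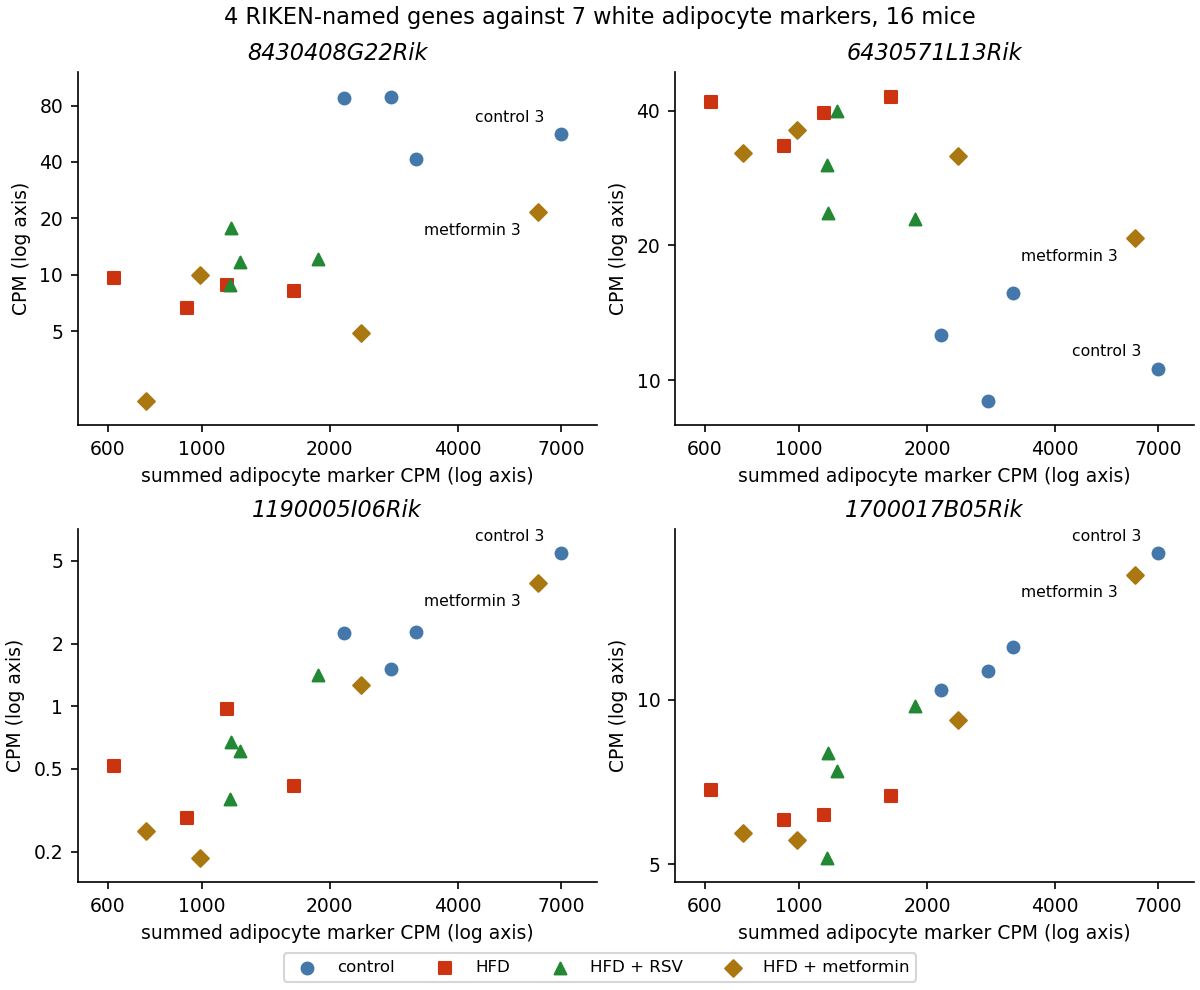
CPM of each gene (y axes, log) against the summed CPM of 7 white adipocyte markers (x axes, log) in 16 mice, coloured by group. 1190005I06Rik and 1700017B05Rik were higher in mice with a higher marker sum (r = 0.901 and 0.928), whereas the control mice lay off the other mice for 8430408G22Rik and 6430571L13Rik.

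**Figure D4:**
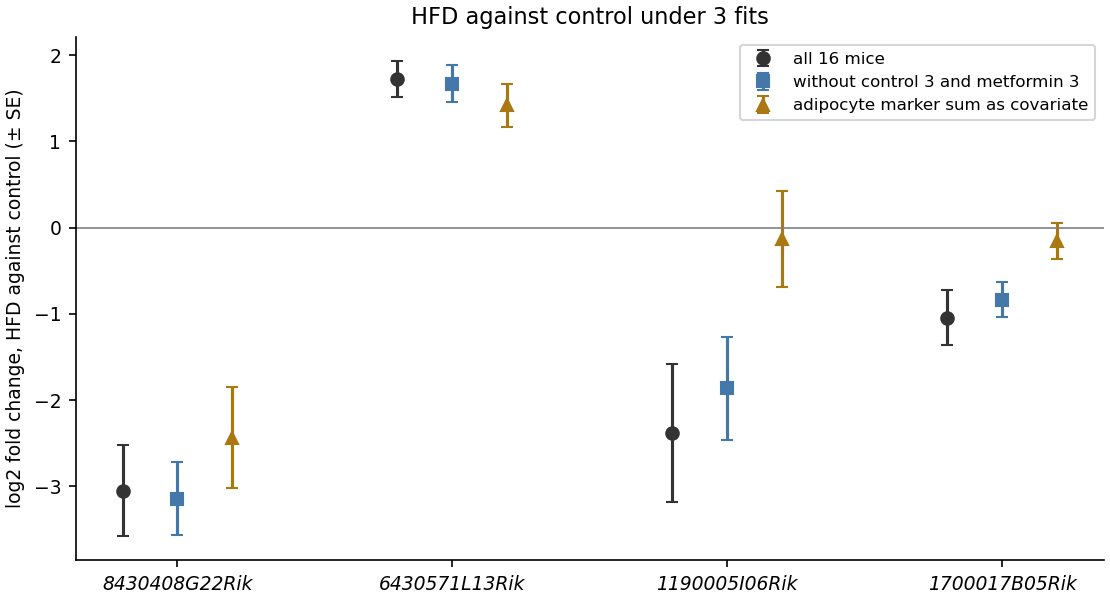
log2 fold change of HFD against control ± SE (y axis) for each gene (x axis) in 3 fits: all 16 mice, without control mouse 3 and metformin mouse 3, and with the adipocyte marker sum as a covariate. With the covariate, 1190005I06Rik and 1700017B05Rik lay at -0.13 and -0.15, and 8430408G22Rik and 6430571L13Rik at -2.43 and 1.42. The marker sums of control and HFD mice did not overlap, so that fit cannot tell the sum apart from the diet.

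By transcript, each gene was read mainly from 1 form. ENSMUST00000067354 took 89.3% of all 8430408G22Rik counts, with 80.2% to 92.2% in single mice. ENSMUST00000042581 took 99.8% of 6430571L13Rik, ENSMUST00000123927 92.3% of 1190005I06Rik and ENSMUST00000034846 80.01% of 1700017B05Rik. The shares of these forms did not separate HFD + RSV from HFD + metformin (exact 2-sided permutation test, p = 0.914, 1, 0.914 and 0.286, with 0.0286 the smallest that 4 against 4 mice can give). The second form of 8430408G22Rik, ENSMUST00000178241, begins a little further in and has a coding sequence of 615 bases like the first. It followed the gene, with a log2FC of -2.27 ± 0.52 in HFD + RSV against control and -2.84 ± 0.54 in HFD + metformin against control. The noncoding form of 6430571L13Rik, ENSMUST00000135520, had 7 counts in HFD mouse 1, 10 in HFD mouse 2 and 0 in the 14 others. A second coding form of 1700017B05Rik, ENSMUST00000213199, held 591 counts over the 16 mice and had a log2FC of -0.05 ± 0.45 in HFD + metformin against HFD, where the main form had 0.64 ± 0.34.

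The position of each gene bears on how its counts were made. 8430408G22Rik lies on the plus strand within the span of Rassf4, a minus-strand gene, with no shared exon base. 1190005I06Rik shares 435 of its 1083 exon bases with Gm27021 on the same strand, so its counts are uncertain where fragments could be given to either. Gm27021 had 31 counts in all, in 4 mice: 7 in HFD mouse 4 and 2, 13 and 9 in metformin mice 2, 3 and 4. With these added, the counts of 1190005I06Rik were 12, 7, 22 and 16 in the HFD group and 23, 7, 106 and 16 in the HFD + metformin group, and the 4 control mice, at 40 to 139, still lay above the HFD group. 6430571L13Rik shares 313 exon bases, which belong to its noncoding form, with the minus-strand lincRNA 4930429P21Rik, and strand use in the counting is not given in the sources used here. 1700017B05Rik overlaps no other annotated gene.

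Among the genes within 100 kb of the 4 members, 0 of the 12 that were tested were called in any comparison by edgeR. Of all genes tested, 2.43% were called in HFD against control and at most 0.013% in the others, so so few genes would seldom include a call. Rassf4 had a mean of 23.2 CPM in control mice and 12.6 in HFD mice, a log2FC of -0.88 ± 0.25 (edgeR, adjusted P = 0.0708). Cish, a feedback inhibitor of STAT5 signalling, lies 37818 bases from 6430571L13Rik. Its mean was 13.7 CPM in control mice, 68.0 in HFD mice, 11.7 in RSV mice and 23.4 in metformin mice. Its log2FC was 2.31 ± 0.60 in HFD against control (adjusted P = 0.0573, edgeR) and -2.54 ± 0.61 in HFD + RSV against HFD (adjusted P = 0.999). In the second of these comparisons 6430571L13Rik was at -0.44 ± 0.21. The 4 genes tested within 100 kb of 6430571L13Rik ranged from 0.25 to 2.31 and from -2.54 to -0.27 in these comparisons. Cish had the largest absolute log2FC of them in both, so it is the extreme of its window. Hemk1, the nearest gene to 6430571L13Rik at 2252 bases, had a log2FC of 0.25 ± 0.13 in HFD against control (adjusted P = 0.256, edgeR). Of the genes beside 1190005I06Rik, Emc8 was at -0.25 ± 0.18 and Gins2 at -0.08 ± 0.31, and beside 1700017B05Rik the 1 tested gene, Commd4, was at 0.09 ± 0.14 (adjusted P = 0.401, 0.897 and 0.734, edgeR).

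In the table of long noncoding RNA (lncRNA), 6 transcripts lay over or within 5 kb of a member: 4 at 6430571L13Rik, 1 at 1190005I06Rik and 1 at 1700017B05Rik. Only 2 of them, both at 6430571L13Rik, had enough counts to test. NONMMUT070891.2 (chr9:107351786-107353286) overlaps the end of the noncoding form of 6430571L13Rik and also lies over 4930429P21Rik, so it may share fragments with both. It had 2.16, 1.82, 0.51 and 2.37 CPM of the lncRNA table in the control mice and 3.78, 7.99, 8.83 and 21.4 in the HFD mice. The RSV mice had 4.74, 7.37, 3.83 and 2.40, and the metformin mice 2.29, 3.46, 5.73 and 4.92. The control mice lay below the HFD mice and below the RSV mice, a separation whose share over all lncRNA transcripts was not counted. The treated groups overlapped the HFD group (log2FC -1.18 ± 0.50 after resveratrol and -1.32 ± 0.50 after metformin, adjusted P = 0.741 and 0.665, edgeR, against 0.0114% and 0% of lncRNA transcripts called).

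NONMMUT153460.1 (chr9:107327449-107336207) lies within Hemk1, upstream of 6430571L13Rik, and shares no base with it. The control mice had 0.36, 1.21, 0.25 and 0.68 CPM, and the HFD mice 4.37, 9.13, 16.5 and 17.3. The RSV mice had 0, 0.57, 0.59 and 0.90, from at most 3 counts each, and the metformin mice 1.91, 0.99, 7.97 and 1.41. It was called in HFD against control, with a log2FC of 4.08 ± 0.75 (edgeR, adjusted P = 0.0203, beside 1.62% of 17599 lncRNA transcripts called). The call was lost without control mouse 2, 3 or 4 or HFD mouse 3 (adjusted P = 0.0675, 0.0776, 0.056 and 0.0578, edgeR), and the log2FC without any 1 mouse was 3.81 to 4.71. Without both control mouse 3 and metformin mouse 3 it was 3.80 (adjusted P = 0.0223, edgeR). Every RSV mouse lay below every HFD mouse, a separation whose share over all lncRNA transcripts was not counted. The log2FC was -4.43 ± 0.78 and was not called (adjusted P = 0.119, edgeR, background 0.0114%). Without control mouse 3 and metformin mouse 3, a setting added after seeing the data, it was called, at -4.42 (adjusted P = 0.0327, edgeR). Those 2 mice are in neither group of this comparison. They enter it only through the spread, scaling and adjustment that all groups share, and the log2FC hardly moved. The study lists this transcript among its top lncRNAs, higher in HFD mice and lower after resveratrol. The rule of the study was a P below 0.05 with an absolute log2FC above 1, unlike the rule here. 6430571L13Rik itself lay above every control mouse in all RSV mice, and the difference between the responses of the 2 transcripts was not tested.

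**Figure D5:**
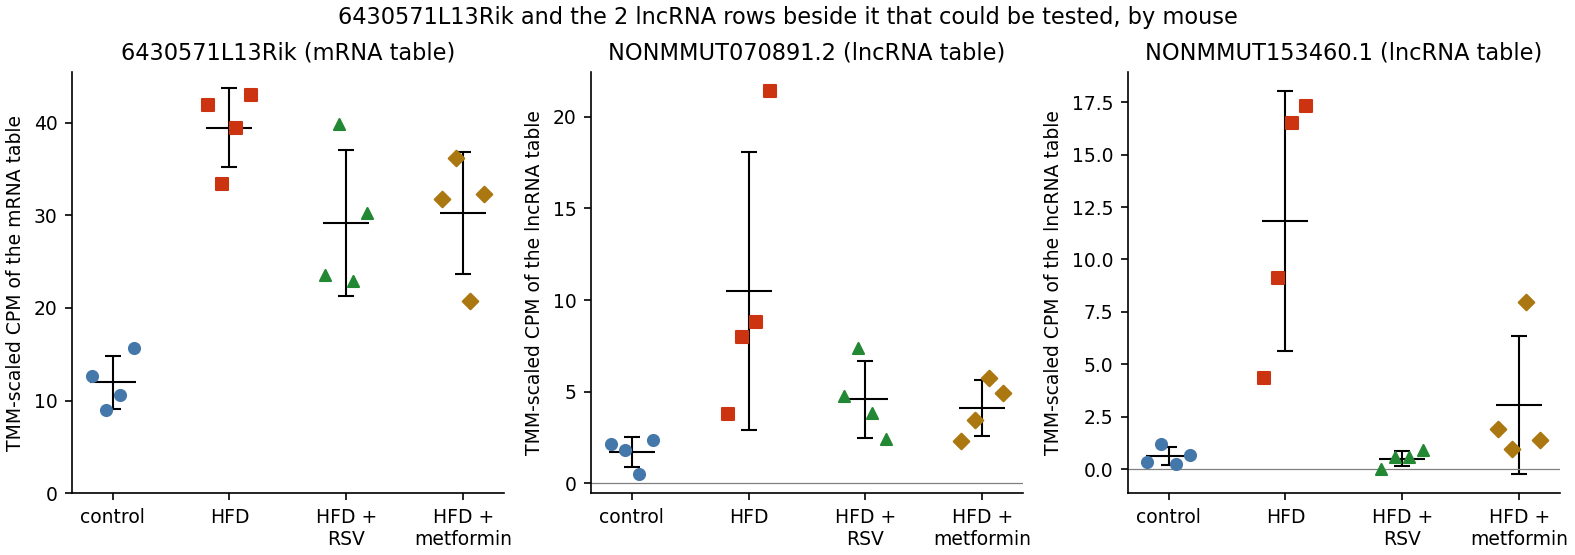
TMM-scaled CPM by mouse and group of 6430571L13Rik (left, mRNA table) and of 2 lncRNA transcripts beside it (lncRNA table, scaled separately, so levels are not comparable between panels). Points are mice, bars are the mean ± SD (n = 4). NONMMUT153460.1 was at 4.37 to 17.3 in the HFD mice and at most 0.90 in the RSV mice, where 6430571L13Rik was at 22.9 to 39.9.

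Because 8430408G22Rik is known as a FoxO target, 24 FoxO targets and factors were counted in the same fit. The list is tied to a member chosen for its level in HFD against control, and it was chosen with earlier results known. Its shares are therefore descriptions, and no test over the list was run. In HFD against control 0 were called higher and 4 lower, 16.7% of the list, beside 1.32% of all genes called higher and 1.11% called lower. Those called were Ddit4, an inhibitor of mTORC1, at -2.48 ± 0.51, Eif4ebp1, a repressor of translation, at -1.21 ± 0.18, Gabarapl1, an autophagosome protein, at -0.96 ± 0.18, and Bnip3, a mitophagy receptor, at -0.67 ± 0.14 (edgeR, adjusted P = 0.0336, 0.0109, 0.0201 and 0.0342). The count that fell was 1 without control mouse 2 or 3 or without HFD mouse 1, 2 or 3, and 2 without control mouse 4 or HFD mouse 4, while the share of all genes called lower ranged from 0.0451% to 1.91% without each mouse in turn. Without both control mouse 3 and metformin mouse 3 it was 5, beside 1.90% of all genes called lower. DESeq2 called 8 of the list lower, beside 4.73% of all genes. With the adipocyte marker sum as a covariate 0 of the list and 0% of all genes were called lower by edgeR. The median of the list was -0.20, beside -0.02 over all genes. The ubiquitin ligase genes Fbxo32 and Trim63 were at -0.36 ± 0.29 and -0.85 ± 0.29 and Pdk4, a brake on glucose oxidation, at -0.44 ± 0.26, none of them called (adjusted P = 0.472, 0.0997 and 0.306, edgeR). Foxo1 was at -0.20 ± 0.20 and Foxo3 at -0.17 ± 0.12 (adjusted P = 0.57 and 0.374, edgeR). The list genes with a positive log2FC were Foxo6 at 1.23 ± 0.32, Pik3ip1 at 0.52 ± 0.35, Foxo4 at 0.33 ± 0.13 and Sesn3 at 0.05 ± 0.36. None of these was called (adjusted P = 0.0565, 0.38, 0.151 and 0.95, edgeR). In the 5 other comparisons 0 of the 24 genes were called, beside at most 0.013% of all genes. A list of 10 genes of STAT5 feedback was taken up because Cish neighbours 6430571L13Rik, again with earlier results known. Of these genes, 1 was called higher in HFD against control, Socs1 at 2.52 ± 0.52 (adjusted P = 0.0336, edgeR). Elsewhere 0 were called, again beside at most 0.013% of all genes. Socs1 was at -2.37 ± 0.51 in HFD + RSV against HFD and -2.11 ± 0.505 in HFD + metformin against HFD (adjusted P = 0.999 and 0.44, edgeR). Neither comparison had overlap, whose share over all genes was not counted. The list medians there were -0.18 and -0.24, beside 0.005 and 0.02 over all genes.

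The genes most like each member over the 16 mice, by Pearson's r of log2 CPM, differed between the members. For 8430408G22Rik they were Mpzl2 (0.904), Cdkn1a (0.902), a cell cycle inhibitor that also stands in the FoxO list, and AC126250.1 (0.879). For 6430571L13Rik they were Ky (0.932), a muscle protein gene that is mutated in the kyphoscoliosis mouse, Plxnd1 (0.919), a semaphorin receptor, and Alg2 (0.914). For 1190005I06Rik they were Hacd2 (0.966), an enzyme of fatty acid elongation, Car5b (0.954), a mitochondrial carbonic anhydrase, and Npc2 (0.954), a lysosomal cholesterol carrier. For 1700017B05Rik they were Gm26377 (0.967), Sfxn1 (0.966), a mitochondrial serine carrier, and Mpp2 (0.966). With group means subtracted, 0 of the 3 genes stayed among the 3 most alike for each member. Between the members themselves, 8430408G22Rik and 6430571L13Rik ran opposite at r = -0.864, or -0.474 with group means subtracted.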

How the data were processed

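RNA from skeletal muscle of 16 mice in 4 groups was sequenced on Illumina. Per the submitters' processing notes, the authors used fastp and HISAT2 on GRCm38, and StringTie for quantification, and deposited per transcript an expected count and an FPKM value for mRNA and lncRNA. Whether the count used strand is not given in the sources used here. StringTie splits fragments between transcripts, so the counts were summed per gene name (82388 transcripts, 23235 names). The 4 transcripts that were split over 2 lines were joined. Groups followed the treatment label. Replicates were numbered in accession order, each from 1 mouse, and P values measure the spread between these mice. Depth is given as counts per mouse, and intervals and SE cover the spread in the fit only.

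edgeR 4.0.16 (quasi-likelihood, robust, TMM, filterByExpr at 10 counts and a total of 15) was fitted to all 4 groups in R 4.3.3, with Benjamini-Hochberg adjustment over 15364 genes, 44573 transcripts or 17599 lncRNA transcripts. A call is an adjusted P below 0.05. The 95% intervals are the log2FC ± 1.96 SE. Alternatives were DESeq2 1.42.0, limma 3.58.1 on log2(FPKM + 0.1), other scalings and filters, each mouse left out, and an unadjusted P below 0.05 with an absolute log2FC above 1. The fit was tested on simulated data. The 4 members and the gene lists were chosen with earlier results of these data known. Genes are named if they are members, tested neighbours within 100 kb, the 3 most alike by Pearson's r, up to 4 called genes of a list, Foxo1 or Foxo3, and any other is said to be chosen after its values were seen. Socs1 and Cish come from these lists. Fbxo32, Trim63, Pdk4 and the FoxO list genes with a positive log2FC were named after their values were seen. Promoters were taken from RefSeq (GRCm38.p6), where 4 of 4 members matched, 8430408G22Rik as Depp1. Gene structure was taken from GENCODE M21, in which all 13 member transcripts have the deposited coordinates.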

Additional observations from a re-analysis of the deposited data

Results flagged for a closer look

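In the HFD + metformin group, 1 value stood far from the other 3 mice: NONMMUT153460.1 was at 7.97 CPM in metformin mouse 3, the mouse that was also high in adipocyte markers, beside 0.99 to 1.91 in the others (a gap to the next mouse of 0.868 of the group's range, past Dixon's critical value). In the HFD + RSV group the adipocyte marker sum of RSV mouse 3 was 1877 CPM, beside 1164 to 1226 in the others (a gap of 0.913 of the range). The same mouse had the highest 1190005I06Rik and 1700017B05Rik of its group, 1.42 and 9.75 CPM. Of the 4 members, none had such a mouse in any group. Chance alone puts about 1 in 20 groups past this value, and 32 groups of values were looked at.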

How the results depend on the processing

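The values below are log2FC. Against the control group, edgeR with all mice called none of the members in the treated groups. The members were chosen with these control mice, which favours a difference, so every call against them in this section is a description. DESeq2 called 8430408G22Rik (-2.44 with RSV, -2.83 with metformin) and 6430571L13Rik (1.296 and 1.347), and limma on FPKM called 6430571L13Rik with metformin (1.28). An unadjusted P below 0.05 with an absolute log2FC above 1 called 8430408G22Rik (-2.45 and -2.83) and 6430571L13Rik (1.29 and 1.34) in both and 1190005I06Rik with RSV (-1.91). Without each mouse in turn the ranges were -3.60 to -2.49 for 8430408G22Rik with metformin, and 1.10 to 1.44 with RSV and 1.22 to 1.50 with metformin for 6430571L13Rik. The calls came without metformin mouse 3 or control mouse 4. The cause of the difference between tools was not tested.

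In comparisons that were called nowhere, signs turned. Limma on FPKM gave -0.047 for 8430408G22Rik in HFD + metformin against HFD. Leaving out single mice gave -0.55 to 0.56 for 8430408G22Rik and -0.035 to 1.76 for 1190005I06Rik in HFD + metformin against HFD, and -0.0073 to 0.90 for 1190005I06Rik in HFD + RSV against HFD. In HFD + RSV against HFD + metformin it gave -0.23 to 0.047 for 6430571L13Rik, -1.35 to 0.51 for 1190005I06Rik and -0.49 to 0.16 for 1700017B05Rik.

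The settings that follow were added after seeing the data. Without control mouse 3 and metformin mouse 3, edgeR called 8430408G22Rik (-2.53 with RSV, -3.69 with metformin) and 6430571L13Rik (1.24 and 1.43) against the control group, and HFD + metformin against HFD turned to -0.55 for 8430408G22Rik and -0.033 for 1190005I06Rik, and HFD + RSV against HFD + metformin to 0.52 for 1190005I06Rik and 0.17 for 1700017B05Rik. With the adipocyte marker sum as a covariate, which did not overlap between these groups, HFD against control was -2.43, 1.42, -0.13 and -0.15 for 8430408G22Rik, 6430571L13Rik, 1190005I06Rik and 1700017B05Rik. With it, 1190005I06Rik turned to -0.10 in HFD + RSV against HFD, -0.52 in HFD + metformin against HFD and 0.42 between the treatments, 1700017B05Rik to -0.020 in HFD + metformin against HFD and 0.042 between the treatments, and 8430408G22Rik to -0.29 in HFD + metformin against HFD.

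Of 432 values of the members over all alternatives, 391 kept their direction and, where tested, their side of the threshold, 19 turned in sign, 18 newly passed it, and 4 in HFD against control, which was not tested, moved by more than 1 SD. Of the 24 FoxO genes, 1 to 4 were called lower in HFD against control without each mouse in turn, and 0 or 1 were called higher. No paired analysis was possible because any 2 groups share at most 1 leading number, and at most 1 leading and second number together, in the mouse labels, and no source used here says what these numbers stand for. At 5 to 139 counts per mouse, 1190005I06Rik is the least precise of the 4.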
